A study of Caenorhabditis elegans with 15 samples.

Results

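The 6 RNA-seq libraries described here came from Caenorhabditis elegans, 3 from the wild type N2 and 3 from the puf-8(ust222) allele. They fell into 2 classes that crossed the genotypes. The libraries N2 1, ust222 1 and ust222 3 were called sperm-poor, and N2 2, N2 3 and ust222 2 sperm-rich. They are 6 of 15 libraries in all. The classes were chosen by a readout of the same libraries, the mean log2 CPM of sperm genes (read counts divided by library size, on a log2 scale), under 0 in one class and above 0 in the other. With 45 sperm genes listed here (spermatid, sperm function and sperm chromatin genes), the sperm-poor means were -2.23 in N2 1, -2.17 in ust222 1 and -2.18 in ust222 3. The sperm-rich means were 2.49 in N2 2, 2.72 in N2 3 and 1.96 in ust222 2, so that the members nearest the threshold were ust222 1 inside and ust222 2 outside, with no library between them. Because the split was selected on these values, differences between the classes are given as a description, with no test.

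All 15 libraries came from whole animals labelled young adult, grown at 20 °C on Escherichia coli OP50 after synchronization as first-stage larvae, with 3 libraries from each of 5 genotypes. The other 9 libraries came from the puf-8 alleles ust221, ust223 and ok302. PUF-8 is an RNA-binding protein of the Pumilio family that acts in the germline. The labels mark ust221 as MUT-4A, ust222 as MUT-4N and ust223 as MUT-8G, without explaining these names. The sources used here do not otherwise say what the ust alleles change or how many hours after feeding each plate was harvested. Nor do they say that libraries of a genotype were separate cultures. A p-value here therefore sets a difference between genotypes against the scatter of these libraries. Within N2 and within ust222 that scatter includes the class split, and the rest of it may be technical.

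In the C. elegans hermaphrodite, germ cells first make sperm, late in larval life, and then switch to oocytes, and the stored sperm fertilize those oocytes in the adult. Embryos begin development inside the uterus, so RNA from a gravid adult includes embryonic RNA. The cuticle is a collagen sheet remade at each molt, and the adult cuticle uses a set of collagens that differs from the larval one. RNA of a whole animal mixes these sources, and in such bulk samples fewer cells of a type and less RNA per cell cannot be told apart.

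The libraries held 20969800 to 29352254 counts, and the 6 described here 20969800 to 27962751. Across genes, the Pearson correlation of log2 CPM was 0.976 to 0.989 between sperm-poor libraries, 0.959 to 0.975 between sperm-rich libraries and 0.787 to 0.822 between classes. An N2 and a ust222 library of one class therefore resembled each other (0.959 to 0.979) more than 2 libraries of one genotype from different classes did (0.796 to 0.811). The targeted gene puf-8 was read at 7, 11 and 3 counts in the ok302 libraries and at 737 to 5008 counts elsewhere. In the sperm-poor libraries puf-8 stood at 89.8, 82.8 and 74.8 CPM, and in the sperm-rich libraries at 125, 112 and 105 CPM, a difference of class means of -0.47 on the log2 scale.

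A gene was counted as different between the classes when the 3 libraries of one class all lay on the same side of the 3 of the other and the class means differed by at least 1 on the log2 scale. Of 15548 genes with enough reads to enter, 3618 were higher in the sperm-poor libraries, which is 23.3% of the genes, and 1789 were lower, which is 11.5%. These 2 percentages are the background for each gene group below. The median difference over all genes was 0.03, and scaling by DESeq2 size factors or by library totals put it at -0.02 and -0.03. Across all genes, the Pearson correlation of the within-N2 and the within-ust222 difference was 0.88, a description over genes that are not independent. Within N2 the sperm-poor class is the single library N2 1, and within ust222 the sperm-rich class is the single library ust222 2.

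**Figure D1:**
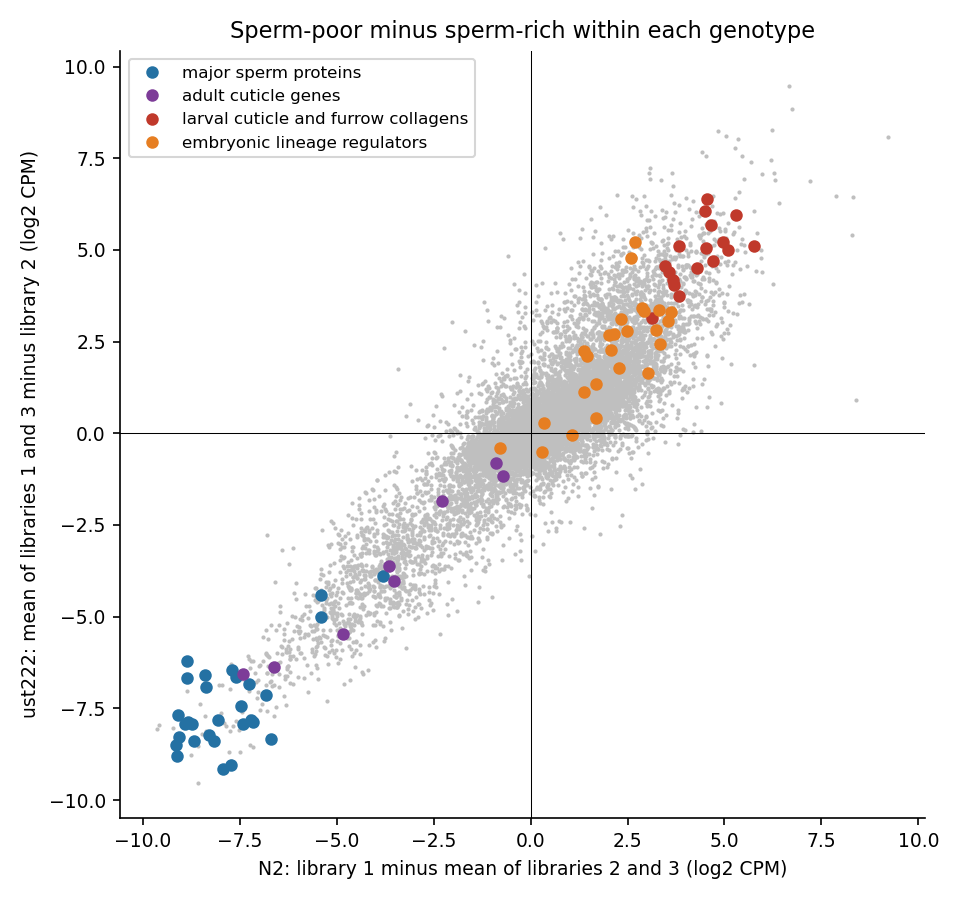
Sperm-poor minus sperm-rich difference of each gene within N2 (x axis, log2 CPM) against the same difference within ust222 (y axis, log2 CPM), with 1 grey point for each of 15548 genes and 4 gene lists in color. Major sperm protein and adult cuticle genes lie at the lower left and larval collagens at the upper right, along a cloud with a correlation of 0.88.

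Sperm genes set the classes, so their difference is a description of the choice. The major sperm proteins, which build the cytoskeleton that moves the amoeboid sperm, took 0.127%, 0.174% and 0.0952% of all counts in N2 2, N2 3 and ust222 2. They took 0.000476%, 0.00039% and 0.000459% in N2 1, ust222 1 and ust222 3. All 29 major sperm protein genes that entered were lower in the sperm-poor libraries, with a median difference of -7.85 (-7.99 with genes unread in the sperm-poor libraries set to a floor of 3 counts over the class). Members of this family are near-identical in sequence, so the split of reads between single msp genes is uncertain. The gene msp-51 had no read in any sperm-poor library and 38.5, 59.4 and 37.7 CPM in the sperm-rich ones, at least 1008-fold lower. The same held for msp-78, at 0 CPM in 3 libraries and at 41.9, 55.98 and 31.1 CPM in the others.

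The sperm chromatin, spermatid and sperm function genes are the 45 behind the class means given here, so their values restate the choice. All 8 sperm chromatin genes were lower, among them spch-1, which encodes a small basic protein that packs sperm DNA and stood at 0.22, 0 and 0.0979 CPM against 40.9, 74.6 and 51.6 CPM. The sperm phosphatase gene gsp-3 stood at 0, 0.379 and 0 CPM against 23.9, 41.6 and 33.2 CPM. Of 37 listed spermatid and sperm function genes, 30 entered, 26 were lower and none was higher. All 9 nspd genes that entered, of 10 in this nematode-specific peptide family, were lower, with a median difference of -7.29. Of these, nspd-1, nspd-2 and nspd-3 are also among the 45. Outside the lists, F27C1.1 and C10G11.8 were named for class differences among the largest on the lower side. Their values restate that choice. They had no read in the sperm-poor libraries and entered only through their reads in the sperm-rich ones. Their class means there were 37.3 ± 0.851 and 34.1 ± 8.66 CPM (SD, n = 3). Their bounds were at least 831-fold and 761-fold lower.

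Regulators that act before sperm are built had a median difference of -0.63, against -4.75 for the spermatid and sperm function genes. The latter helped set the classes, and their single differences ran from -8.47 to 0.38, overlapping those of the regulators. The gene fog-1, which directs germ cells to the sperm fate, stood at 24.1, 20.9 and 25.4 CPM in the sperm-poor libraries and at 33.5, 31.8 and 36.8 CPM in the sperm-rich ones. The transcription factor gene spe-44, which turns on sperm genes in spermatocytes, stood at 14.2, 18.01 and 18.1 CPM against 25.9, 28.1 and 28.8 CPM. Both sets lay apart without reaching a difference of 1, at -0.54 and -0.72. The gene fog-3, a second sperm-fate gene, was the 1 of 4 such regulators past the size threshold, at -1.12, with 0.44, 0.21 and 0.636 CPM against 1.12, 0.691 and 1.15 CPM. The translation regulator gene cpb-1 differed by -0.36, with overlapping libraries. None of the 17 sex determination genes was counted as higher or lower.

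Protein families annotated in the authors' deposited table were looked at after the class values were known. These tallies were not cleared of genes in the sperm lists above, some of which set the classes. Of 91 genes with a major sperm protein domain that entered, 80 were lower in the sperm-poor libraries and 3 were higher. Of 79 genes with a protein-tyrosine phosphatase domain, 56 were lower and 5 higher. Of 56 genes with a calcineurin-like phosphoesterase domain, 26 were lower and 5 higher. The background for lower genes was 11.5%.

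**Figure D2:**
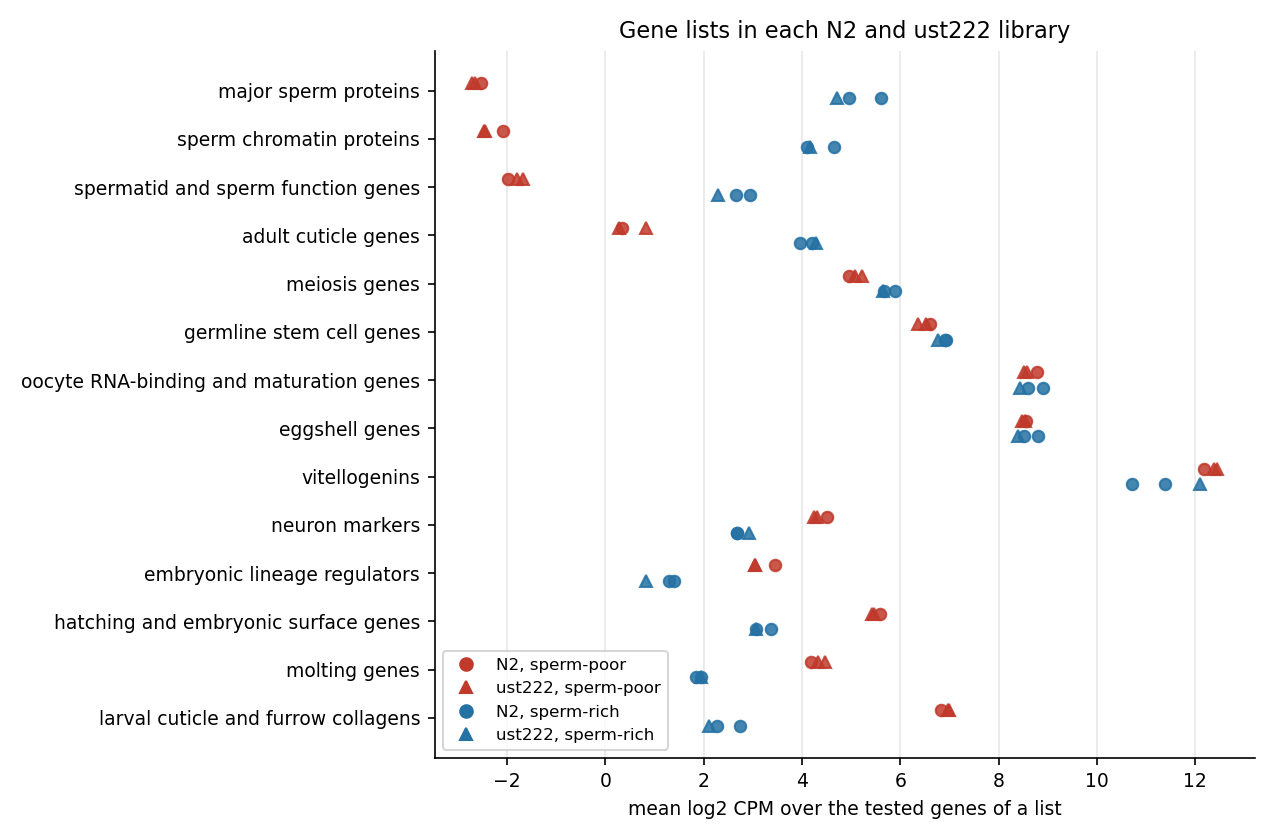
Mean log2 CPM (x axis) over the genes of 14 lists (y axis) in each of the 6 libraries, with circles for N2, triangles for ust222, red for sperm-poor and blue for sperm-rich. The 2 classes stand apart at the sperm and adult cuticle lists, where red lies left, and at the larval cuticle, molting and embryo lists, where red lies right, while the oocyte and eggshell lists overlap.

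Adult cuticle genes were lower in the sperm-poor libraries together with the sperm genes. Of 8 adult cuticle genes, 6 were lower and none was higher, with a median difference of -3.72. The collagen gene col-19, a standard marker of the adult stage, stood at 174, 177 and 170 CPM in the sperm-poor libraries and at 1674, 2419 and 2820 CPM in the sperm-rich ones. The adult collagen gene col-7 stood at 0.22, 0.505 and 0.0979 CPM against 25.2, 35.2 and 27.3 CPM. The collagen gene bli-6, whose mutations raise fluid blisters in the adult cuticle, stood at 0.22, 0.421 and 0.832 CPM against 43.9, 62.6 and 64.7 CPM. Classes did not overlap for any of these 3 genes.

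The other members were col-62, bli-1 and bli-2, lower by class means that differed by -5.29, -3.74 and -1.90, and the regulators lin-29 and mab-10, which act together at the larval-to-adult switch of the skin. The regulators differed by -0.55 and -0.90 and were not counted. The collagen gene col-81 was among those that differed most on the lower side, at 2.81, 1.56 and 2.50 CPM against 978, 1265 and 1528 CPM, or 549-fold. The collagen genes col-129 and col-139 followed a like pattern, with col-129 at 5.02 ± 1.61 CPM against 1698 ± 431 CPM (SD, n = 3). Together the col genes took 1.53%, 1.83% and 1.63% of counts in the sperm-poor libraries and 4.17%, 5.06% and 6.01% in the sperm-rich ones.

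The collagen family was split rather than lower as a whole. Of 128 col genes that entered, 54 were higher in the sperm-poor libraries and 45 lower, both above the background shares. The col genes at the top of the higher side were col-41, at 164.9, 156 and 137 CPM against 0.48, 0.0493 and 0.459 CPM, and col-165, at 211, 59.2 and 62.9 CPM against 1.41, 2.81 and 0 CPM.

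All 17 larval cuticle and furrow collagens were higher in the sperm-poor libraries, with a median difference of 4.64. Their summed level was 3460, 2949 and 2799 CPM in the sperm-poor libraries and 125, 197.5 and 104.2 CPM in the sperm-rich ones. The collagen gene sqt-3, needed for the cuticle from the embryo on, stood at 1093, 661 and 578 CPM against 20.4, 37.5 and 9.82 CPM. The furrow collagen gene dpy-7, which patterns the annuli of the cuticle, stood at 108, 111 and 110 CPM against 3.36, 6.61 and 1.56 CPM. The collagen gene rol-6 stood at 90.8, 139.2 and 137 CPM against 1.98, 1.28 and 3.90 CPM. The 3 genes did not overlap between classes.

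Molting genes were higher together with the larval collagens. Of 23 molting genes 16 were higher and none was lower, with a median of 2.61. The gene mlt-11, which encodes a secreted protease inhibitor needed to complete the molt, stood at 105, 134 and 128.7 CPM against 3.68, 3.65 and 1.97 CPM. The period-related timing gene lin-42, which is expressed in step with the molts, stood at 107, 133 and 144 CPM against 5.12, 4.44 and 7.11 CPM.

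Related secreted families followed. Of 70 Hedgehog-related and patched-related genes that entered, which in nematodes act largely in the cuticle, 44 were higher and 3 lower. The gene wrt-10 stood at 53.6, 61.5 and 59.8 CPM against 2.85, 3.75 and 1.42 CPM. Of 28 astacin protease genes that entered, 16 were higher and 2 lower. All of these libraries were labelled young adult, and in RNA of whole animals the tissue or stage that a cuticle gene was read from cannot be told apart.

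**Figure D3:**
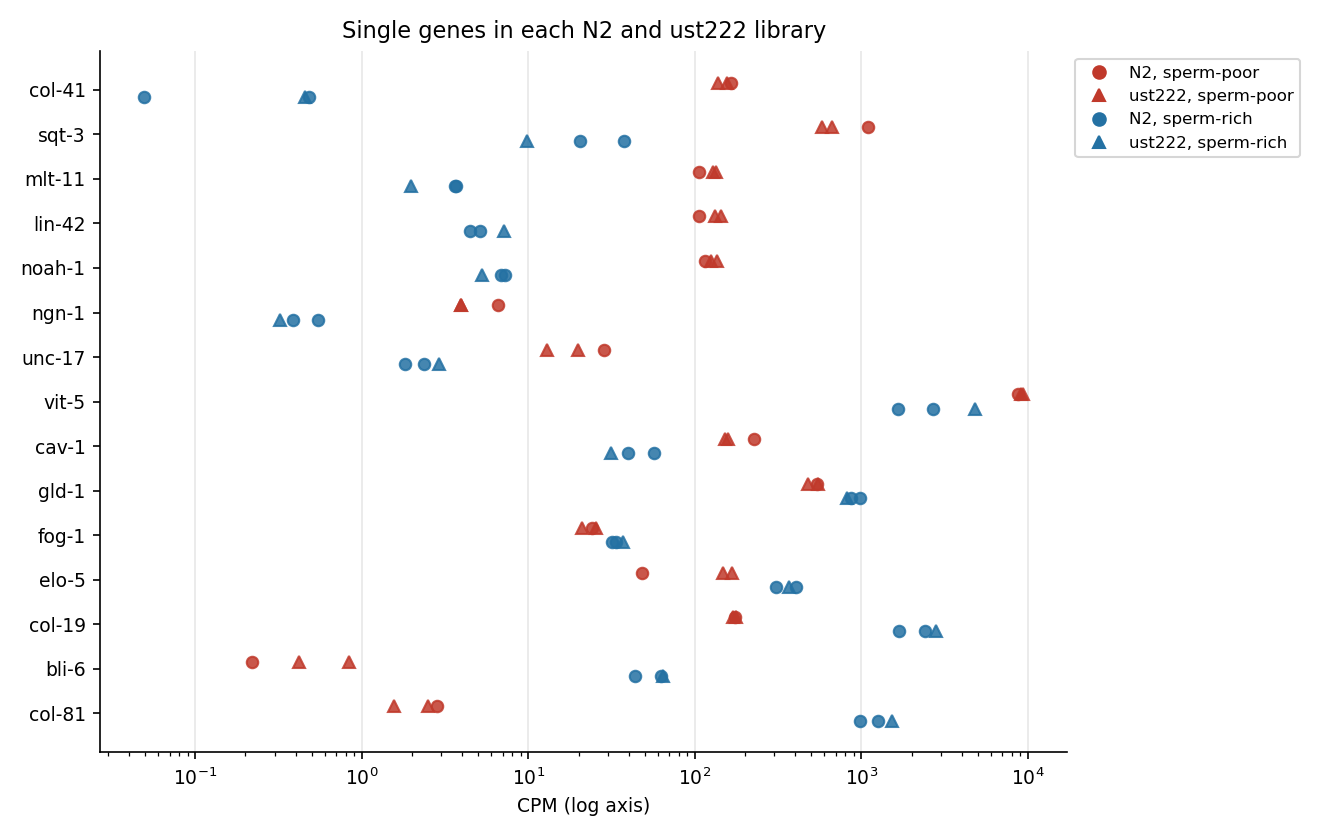
CPM (x axis, log scale) of 15 single genes (y axis) in each of the 6 libraries, with circles for N2, triangles for ust222, red for sperm-poor and blue for sperm-rich. The cuticle genes col-41 and col-81 lie on opposite sides, both with a gap between the classes, while the germline regulators gld-1 and fog-1 lie close together. A value of 0 cannot be drawn on this axis and none of these genes has one.

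Genes of embryonic development were higher in the sperm-poor libraries. Of 25 embryonic lineage regulators, 20 were higher and none was lower, with a median difference of 2.27. Of 19 hatching and embryonic surface genes, 14 were higher and none was lower, with a median of 2.26. Among these was noah-1, whose product is part of the temporary matrix under a forming cuticle, at 115, 126 and 135 CPM against 7.26, 6.86 and 5.27 CPM. The gene sym-1, which encodes a leucine-rich repeat protein of the embryonic surface, stood at 89.9, 95.9 and 102 CPM against 3.81, 3.30 and 2.06 CPM. Of 34 early zygotic genes, 21 entered, 14 were higher and none was lower, with a median of 1.45. The summed level of the early zygotic genes was 148, 110 and 106 CPM against 86.6, 86.7 and 64.9 CPM, so that these genes were read in both classes.

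The neurogenin gene ngn-1, a neuronal fate gene, stood at 6.55, 3.91 and 3.92 CPM against 0.384, 0.543 and 0.321 CPM. The homeobox gene vab-7, which patterns the posterior of the embryo, stood at 2.42, 3.07 and 1.57 CPM against 0.256, 0.0987 and 0.138 CPM. The T-box gene tbx-8, which acts in morphogenesis of the embryo, stood at 2.95, 1.81 and 0.587 CPM against 0.224, 0.197 and 0 CPM. In each of these the lowest sperm-poor library lay above the highest sperm-rich one, at low levels throughout. The linker histone gene his-24 was higher too, at 368, 243 and 268 CPM against 17.5, 32.2 and 6.10 CPM. Among domain families, 52 of 78 homeobox genes were higher and none was lower, and 94 of 132 genes with an F-box associated domain were higher and none was lower. Related families did not follow. Of 111 genes with an F-box domain 12 were higher and 15 lower, and of 149 with an FTH domain 13 and 28. Of 99 F-box A genes that entered, 8 were higher and 17 lower. A link of the F-box families to embryos was not tested.

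Of 9 heterochronic genes, which time larval development, 3 were higher and none was lower, with a median difference of 0.39. The Hunchback-like gene hbl-1, which times early larval fates, stood at 72.9, 39.8 and 30.8 CPM against 5.21, 5.72 and 2.39 CPM. The timing gene lin-14 stood at 25.9, 11.6 and 9.98 CPM against 3.81, 3.01 and 3.53 CPM. Of 12 genes of the fourth-stage vulva and uterus 10 were higher. The Notch ligand gene lag-2 stood at 4.40, 3.66 and 3.43 CPM against 0.48, 0 and 0 CPM.

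Neuronal genes were higher in the sperm-poor libraries. Of 23 neuron markers 18 were higher and none was lower, with a median difference of 1.72, and the summed level was 1602, 1142 and 1179 CPM against 535, 632 and 621 CPM. The gene unc-17, the vesicular acetylcholine transporter of cholinergic neurons, stood at 28.5, 13.004 and 19.8 CPM against 1.82, 2.37 and 2.89 CPM. The synaptic vesicle gene rab-3 stood at 48.0, 33.3 and 40.3 CPM against 7.71, 7.30 and 11.2 CPM. Of 98 neuropeptide genes that entered 60 were higher and 4 lower, and of 28 insulin-like peptide genes 14 were higher and 3 lower. The insulin-like gene ins-31 went against its family, with no read in the sperm-poor libraries and 5.28, 7.84 and 6.93 CPM in the others, at least 149-fold lower.

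Among listed germline genes other than those of sperm, few were counted as higher or lower. Of 20 oocyte RNA-binding and maturation genes only cav-1 was counted, and of 13 eggshell genes none was. The caveolin gene cav-1, whose product sits in oocyte granules and is carried into the embryo, stood at 227, 152.1 and 158 CPM in the sperm-poor libraries and at 39.7, 56.9 and 31.4 CPM in the sperm-rich ones. Of 25 meiosis genes 3 were lower (spo-11, which makes the meiotic breaks, chk-2 and syp-3) and 23 of 25 lay below without overlap, most by less than 1. Over all 15548 genes that entered, 4477 lay below without overlap. The meiotic list had a median of -0.62.

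The translational repressor gene gld-1, which acts in early meiotic germ cells, stood at 540, 549 and 481 CPM against 868, 974 and 821 CPM, a difference of -0.76. The germline Notch receptor gene glp-1 stood at 88.3, 73.98 and 62.6 CPM against 132, 101 and 97.8 CPM. None of 10 germline stem cell genes, 17 germ granule genes or 24 cell cycle and replication genes was counted as higher or lower. Without overlap, 6, 9 and 13 of them lay below and 0 above, with medians of -0.42, -0.40 and -0.19. Over all 15548 genes, 4477 lay below without overlap.

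Yolk genes were higher in the sperm-poor libraries, with a spread among the sperm-rich ones. The 6 vitellogenins, the yolk proteins that the intestine makes for oocytes, took 3.44%, 3.81% and 3.75% of counts in N2 1, ust222 1 and ust222 3. They took 1.18%, 1.61% and 2.65% in N2 2, N2 3 and ust222 2. The genes vit-2, vit-5 and vit-6 were higher, with vit-5 at 8692, 9118 and 9366 CPM against 1655, 2708 and 4814 CPM. The genes vit-3 and vit-4 differed by 0.94 and 0.88 and vit-1 by -0.41, and the classes overlapped for all 3. The vit-3, vit-4 and vit-5 genes are near-identical, so reads may be split between them.

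Metabolic and stress genes were mixed. Of 32 fat metabolism genes 5 were higher and 5 lower. The branched-chain fatty acid elongase genes elo-5 and elo-6 were lower, with elo-5 at 48.2, 148 and 166 CPM against 405, 305 and 366 CPM, and N2 1 lowest of all. The fatty acid activation gene acs-2, a fasting-responsive gene, was higher, at 328, 140 and 160 CPM against 53.4, 70.1 and 48.5 CPM. Of 15 genes induced by the insulin-pathway factor DAF-16 that entered, 7 were higher and none lower, among them the metallothionein gene mtl-1 at 80.3, 66.9 and 53.2 CPM against 1.73, 2.86 and 3.62 CPM. The iron storage gene ftn-1 stood at 3.17, 9.64 and 5.87 CPM against 0, 0.0987 and 0 CPM. Of 15 heat shock genes 2 were higher and 1 lower.

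Markers of other somatic tissues were measured beside these groups, and their part in the differences was not tested. Of 12 intestine markers 4 were higher and none lower, with summed levels of 9831, 5716 and 6393 CPM against 3898, 5801 and 5852 CPM, which overlapped. Of 18 muscle markers 3 were higher, with summed levels of 7791 to 11338 CPM against 6445 to 9781 CPM. Of 9 gonad sheath and spermatheca markers 3 were higher and 1 lower. Of 11 hypodermis and seam markers 6 were higher and 1 lower.

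Male somatic markers were near 0 in both classes. Of 11 such markers 8 entered, and their summed level was 5.73 to 7.69 CPM in the sperm-poor and 3.90 to 7.61 CPM in the sperm-rich libraries, with 4 to 5 and 1 to 3 markers at 0. The male-neuron genes cwp-1 and cwp-2 were lower, with cwp-1 at 0 CPM in the sperm-poor libraries and at 0.48, 1.68 and 0.642 CPM in the sperm-rich ones, while cwp-4, cwp-5 and klp-6 were higher.

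Genes of the mitochondrial genome were lower in the sperm-poor libraries. The 12 protein-coding genes took 1.02%, 0.858% and 0.784% of counts there and 2.32%, 1.38% and 2.09% in the sperm-rich libraries. Of the 12 genes 6 were lower and none was higher, with a median of -1.06. Cytosolic ribosomal protein genes had a median of 0.37 over 76 genes, and 66 mitochondrial ribosomal protein genes encoded in the nucleus a median of -0.27, with 0 of the 66 counted.

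A larger share of X-linked genes was higher, and a smaller share lower, than of the genes of any autosome. Of 2230 X-linked genes that entered, 35.1% were higher in the sperm-poor libraries and 5.70% lower. On the 5 autosomes, 16.9% to 24.9% were higher and 9.84% to 16.9% lower. Chromosome IV held 24.8% of all lower genes with 16.9% of the genes that entered. The genes msp-51 and msp-78 lie on it. These shares were tallied after the class values were known.

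**Figure D4:**
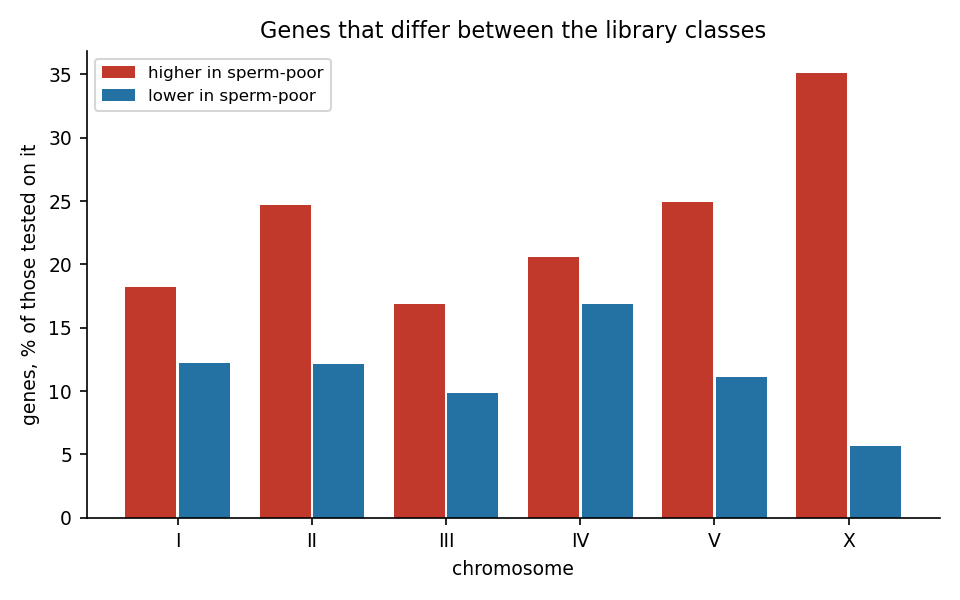
Percentage of the genes that entered on each nuclear chromosome (x axis) that were higher (red) or lower (blue) in the sperm-poor libraries (y axis, percent). X has the tallest red bar, 35.1%, and the shortest blue bar, 5.70%.

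The labelled comparison of ust222 with N2, which asks what the allele changes, was set inside this split. With edgeR's quasi-likelihood test, 0 of 15548 genes passed an adjusted p of 0.05, 317 had an unadjusted p under 0.05, and DESeq2 called 27. With the library class as an additive term, edgeR called 13 genes, 7 higher and 6 lower in ust222. The class term was itself chosen from the readout.

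The gene T22B7.7 had the lowest adjusted p among them. It stood at 0.352, 0.831 and 1.09 CPM in N2 1, N2 2 and N2 3 and at 40.1, 15.0 and 37.2 CPM in ust222 1, ust222 2 and ust222 3, higher in 3 of 3 ust222 libraries. Its log2 fold change was 5.04 ± 0.48 (SE; edgeR adjusted p = 0.00659), and without the class term the edgeR adjusted p was 0.99994. Without that term DESeq2 gave it an adjusted p of 2.27e-15, and edgeR in a fit of all 15 libraries 0.000305. The acyltransferase gene dgat-2, which acts in fat storage, stood at 8.53, 6.78 and 6.91 CPM in N2 and at 20.8, 18.8 and 23.98 CPM in ust222. Its log2 fold change was 1.42 ± 0.20 (SE; edgeR adjusted p = 0.0307), and without the class term the adjusted p was 1.37e-06 with DESeq2, 0.99994 with edgeR and 0.093 with edgeR in the fit of all 15 libraries. Some called genes, among them tag-293 and dpy-17, were also counted as higher in the sperm-poor libraries. The genes tag-293 and dpy-17 were higher in N2 1 (40.2 and 601 CPM) than in ust222 1 (6.86 and 200 CPM) and in ust222 3 (8.03 and 186 CPM).

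The 9 libraries of ust221, ust223 and ok302 took no part in the rule, and all had sperm means above 0. Those means were 2.49, 2.89 and 1.97 in ust221, 1.87, 2.02 and 1.30 in ust223, and 3.46, 3.27 and 3.36 in ok302. They were tested against each other with edgeR over 16745 genes. The 3 comparisons share libraries pairwise, so their values stand side by side. In ust223 against ust221, 2036 genes rose (12.2%) and 1952 fell (11.7%). Both directions together made 3988 genes, against 2508 without ust221 replicate 2, 2443 without ust223 replicate 1 and 2487 without ust223 replicate 3. In ok302 against ust221, 3918 rose (23.4%) and 3312 fell (19.8%), and in ok302 against ust223, 4181 rose (25%) and 3713 fell (22.2%). These splits depend on scaling: by library totals the counts were 3819 and 964, 5966 and 817, and 4590 and 2427, with the median of all genes shifted from 0.04 to 0.37, from 0.09 to 0.54 and from 0.16 to 0.28.

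**Figure D5:**
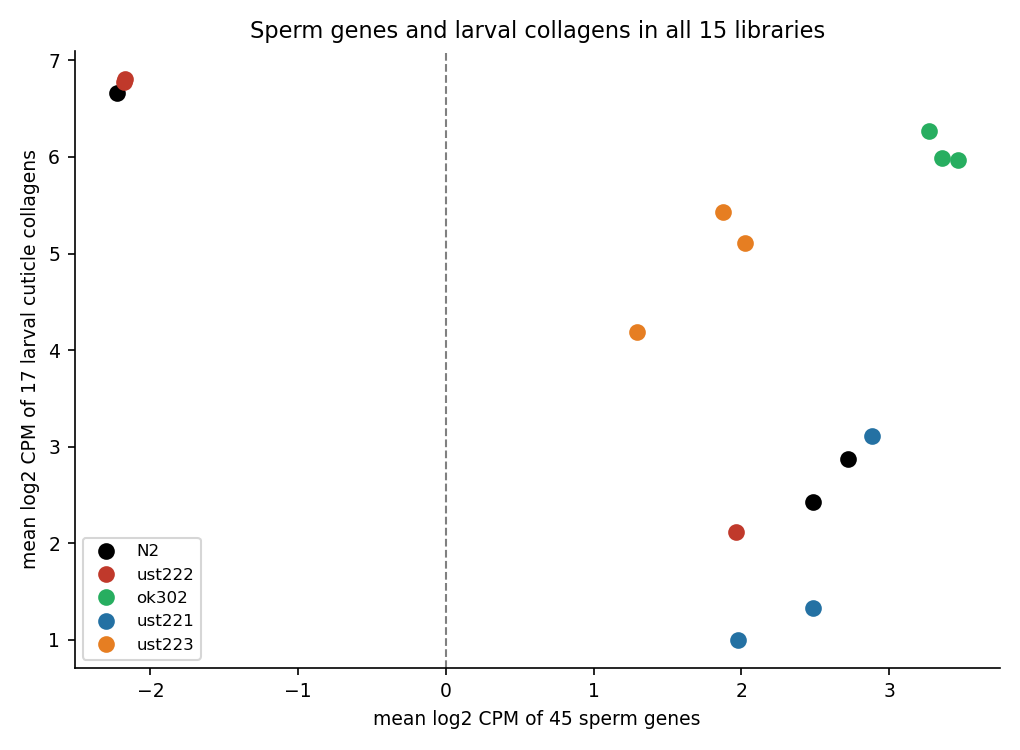
Mean log2 CPM of 45 sperm genes (x axis) against mean log2 CPM of 17 larval cuticle collagens (y axis) in each of the 15 libraries, colored by genotype, with the class threshold of 0 as a dashed line. The 3 sperm-poor libraries lie alone at the upper left, ust223 lies above ust221 with overlapping sperm levels, and ok302 is high on both axes.

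Genes separated by the class split also differed between ust223 and ust221. Of the 3494 class-higher genes that entered this fit, 939 rose in ust223 (26.9%, against 12.2% of all genes) and 32 fell. Of the 1785 class-lower genes, 614 fell (34.4%, against 11.7%) and 138 rose. Of 17 larval collagens 13 rose and none fell, and of 20 early zygotic genes that entered 12 rose and none fell. In a fit of all 15 libraries, whose N2 and ust222 groups each hold both classes, 1 of the 17 and 4 of the 20 rose. The gene sqt-3 stood at 185, 135 and 106 CPM in ust223 and at 7.73, 29.02 and 6.93 CPM in ust221, a log2 fold change of 3.29 ± 0.47 (SE; edgeR adjusted p = 0.000711). The adult collagen gene col-19 fell, at 318, 549 and 467 CPM against 6538, 5461 and 3032 CPM, by 3.49 ± 0.33 on the log2 scale (SE; edgeR adjusted p = 6.29e-05). In the fit of all 15 libraries the edgeR adjusted p was 0.181 for sqt-3 and 0.0876 for col-19.

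Of 8 adult cuticle genes 4 fell in ust223 against ust221 (against 11.7% of all genes), and 0 did in the fit of all 15 libraries. The collagen gene col-81 stood at 13.1, 28.6 and 5.601 CPM against 2070, 2739 and 1053 CPM. The gene cav-1 rose, at 112, 108 and 94.6 CPM against 21.8, 18.4 and 16.08 CPM, as did ngn-1, at 1.90, 2.59 and 2.42 CPM against 0.133, 0.0549 and 0.148 CPM. The neuron markers did not follow, with 1 of 23 higher (against 12.2% of all genes) and none lower. The gene unc-17 stood at 4.98, 3.98 and 6.16 CPM in ust223 and at 6.26, 5.16 and 3.28 CPM in ust221.

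In ust223 against ust221, genes of sperm components that passed the test fell. They were 4 of 8 sperm chromatin genes, 7 of 16 msd and ssp genes and 5 of 9 nspd genes. In the same fit 11.7% of all genes fell, the background for each list here. The msd, ssp and nspd genes share members with the spermatid and sperm function list below, so these calls overlap. The msd and ssp count was 4 without ust221 replicate 2 or ust223 replicate 3 and 11 without ust221 replicate 3. The nspd count was 2 without ust221 replicate 1 or 2, 8 without ust221 replicate 3, 3 without ust223 replicate 1 and 1 without ust223 replicate 3, and by library totals 2 fell and 1 rose. Of 37 spermatid and sperm function genes 10 fell and none rose. The count was 5 when scaled by library totals, 4 without ust221 replicate 2, 6 without ust223 replicate 1, 4 without ust223 replicate 3 and 17 without ust221 replicate 3. Of 29 major sperm protein genes 6 fell, and 18 did with the replicate number as a block, 0 by library totals and 16 with DESeq2. In the fit of all 15 libraries no major sperm protein, spermatid and sperm function or sperm chromatin gene was called. The major sperm protein count was 1 without ust221 replicate 1, 0 without ust221 replicate 2, 25 without ust221 replicate 3, 2 without ust223 replicate 1 and 0 without ust223 replicate 3.

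In ok302 larval collagens and part of the sperm genes rose against ust221. In that comparison, all 17 larval collagens rose and 15 of 37 spermatid and sperm function genes rose, with none fallen in either list. The other sperm lists had few calls. Of 29 major sperm protein genes 2 were higher (against 23.4% of all genes). Of 16 msd and ssp genes 1 was higher and 1 lower, and of 9 nspd genes 1 was higher. Some msd, ssp and nspd genes are also among the 37. The major sperm protein count was 4 without ust221 replicate 2, and the msd and ssp counts were 0 to 2 with 1 library left out, differing from 1 without ok302 replicate 3, ust221 replicate 2 or ust221 replicate 3. Of 4 sperm formation regulators 2 fell (1 without ok302 replicate 1 or 3, and 0 by library totals), and of 8 sperm chromatin genes 4 rose. The gene dpy-7 stood at 39.01, 55.3 and 47.3 CPM in ok302 and at 2.40, 4.11 and 0.664 CPM in ust221, a log2 fold change of 4.34 ± 0.52 (SE; edgeR adjusted p = 0.000165). The sperm chromatin gene spch-1 stood at 167, 128.98 and 180 CPM in ok302 and at 50.6, 70.01 and 21.4 CPM in ust221, a log2 fold change of 1.75 ± 0.38 (SE; edgeR adjusted p = 0.00382). In the fit of all 15 libraries its edgeR adjusted p was 0.484, and 11 of the 17 larval collagens, 3 of the 37 spermatid and sperm function genes and 0 sperm chromatin genes rose. Of the 1785 class-lower genes that entered, 778 rose in ok302 against ust221 (43.6%, against 23.4% of all genes). Of the same genes 233 fell (13.1%, against 19.8% of all genes). Of the 3494 class-higher genes, 1716 rose (49.1%) and 44 fell (1.26%).

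Against ust223, 33 of 37 spermatid and sperm function genes and 7 of 8 adult cuticle genes rose in ok302 (against 25% of all genes). In the fit of all 15 libraries 4 and 3 did. All 20 oocyte genes fell in ok302 against ust223 (against 22.2% of all genes). In ok302 against ust221, 16 of the 20 fell and 1 rose (19.8% and 23.4% of all genes), and by library totals 9 fell. Of 13 eggshell genes 9 fell against ust221 and 11 against ust223, and of 17 germ granule genes 16 fell in each. The blister collagen gene bli-1 stood at 27.4, 22.4 and 23.1 CPM in ok302, at 0.666, 2.19 and 1.03 CPM in ust221 and at 0.19, 1.65 and 0.295 CPM in ust223. The male-neuron gene cwp-1 stood at 6.01, 4.88 and 3.03 CPM in ok302, at 0.133, 0.604 and 0 CPM in ust221 and at 2.21, 3.37 and 1.41 CPM in ust223. Of 10 male soma markers that entered 6 rose in ok302 against ust221 (23.4% of all genes did) and 4 in ust223 against ust221 (12.2%). The latter count was 2 without ust221 replicate 1 or without ust223 replicate 2. In the fit of all 15 libraries 2 and 0 rose. Their part in the sperm gene values was not tested.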

How the data were processed

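Poly(A) RNA libraries were aligned with HISAT2 2.0.5, per the submitters' processing notes. The sources used here name no counting tool, strand setting, genome build or annotation, so reads of overlapping or antisense genes cannot be told apart. The authors' deposited table holds raw read counts per gene for 15 libraries and 47111 features. Counts were scaled by TMM in edgeR 4.0.16 (R 4.3.3) and expressed as CPM, or as log2 CPM with a prior count of 2. Genes entered if edgeR's expression filter kept them. Comparisons of labelled genotypes used edgeR's quasi-likelihood test with Benjamini-Hochberg adjustment at 0.05, and DESeq2 1.42.0 was an alternative. The pipeline was tested on simulated data. The libraries and gene lists were chosen with earlier results of these data known, and no p-value is given for the class split. Genes named are the 12 with the largest class difference on each side (at most 2 per symbol stem), up to 4 per list, and all vitellogenins, sperm regulators and adult cuticle genes. Outside that rule, cwp-4, klp-6, dpy-17, T22B7.7, dgat-2 and the domain and chromosome tallies were chosen after their values were seen. Equal replicate numbers deviated together in ust223 and ust221 (r of 0.15, 0.27 and 0.33), so that pair of genotypes was also fitted with the replicate number as a block. In the other comparisons numbers did not pair the libraries. No library was left out.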

Additional observations from a re-analysis of the deposited data

Results flagged for a closer look

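The 8 genes listed here, with a mean of at least 50 counts, differed in opposite directions within the 2 genotypes, each with every library of one class beyond those of the other. These were picked out of 58 such genes by their read counts, and the difference between genotypes was not tested. Sperm-poor minus sperm-rich values are on the log2 scale, and each rests on 1 lone library per genotype. C08F11.12 differed by -2.04 in N2 and 3.03 in ust222, mpst-7 by -1.23 and 2.00, and gsto-1, a glutathione transferase gene, by -1.24 and 1.37. T22B7.7 differed by -1.24 and 1.36, WBGene00009511 by -1.104 and 1.30, and Y75B8A.28 by -1.08 and 1.22. The opposite order held for R05D8.7, at 1.34 and -1.17, and for F40E3.5, at 1.095 and -1.37.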

How the results depend on the processing

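The class split gave 3135 to 4279 higher and 1415 to 2234 lower genes under other scalings, filters and a prior count of 0.5. With 1 library left out it gave 3690 to 4112 and 1845 to 2160, but fewer libraries then had to lie apart. Of the 3618 higher and 1789 lower genes, 3418 to 3594 and 1653 to 1768 were still counted with 1 library left out. A size of at least 2 left 1825 higher genes and 1240 lower. Among 1105 recomputed values, no named gene counted as higher or lower changed the sign of its class difference. Sign changes of named genes not counted as higher or lower were not checked. The count for ust222 against N2 was 0 with any 1 library left out, 27 with DESeq2, 1 in a fit of all 15 libraries and 13 with the class term. In the fit of all 15 libraries, where N2 and ust222 each hold both classes, ok302 against ust221 gave 2878 genes, ok302 against ust223 gave 3054 and ust223 against ust221 gave 647. With 1 library left out the ranges were 5759 to 7720 for ok302 against ust221, 6207 to 6824 for ok302 against ust223 and 2443 to 5731 for ust223 against ust221. The last count fell to 2508 without ust221 replicate 2, 2443 without ust223 replicate 1 and 2487 without ust223 replicate 3. With the replicate block it was 4454, with 7459 and 8215 in the ok302 comparisons and 0 for ust222 against N2. The cause of these shifts was not tested. Read depth limits genes such as bli-1, read at under 1 CPM in a class.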
